A study of Mus musculus with 8 samples.

Results

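The genes described here encode the subunits of the oxidative phosphorylation machinery and the Ndufaf assembly factors of complex I. They were taken from a gene table of lung macrophages by name: all rows starting with Nduf, Uqcr, Cox4 to Cox8 or Atp5, the 4 genes Sdha to Sdhd, and the mitochondrially encoded genes starting with mt-Nd, mt-Co, mt-Cyt or mt-Atp. This gave 107 of 22597 rows, 94 of nuclear genes and 13 of mitochondrially encoded genes, with 106 symbols because Atp5o occurs in 2 rows. The macrophages were sorted as interstitial macrophages from the lungs of irradiated CD45.1/CD45.2 IMDTR mice, called Cx3cr1-DTR elsewhere in the labels, in which diphtheria toxin empties the interstitial macrophage niche. All recipients were C57BL/6 females whose thorax was shielded during irradiation, so cells resident in the lung were spared. The labels give an age of 12 to 16 weeks, and the treatment text gives 18 weeks for the recipients. Marrow came from Tgfbr2fl/fl donors (WT) or from Lyz2Cre Tgfbr2fl/fl donors (KO), 50 ng of toxin was given after 1 month, and cells were taken 10 days later. The KO thus combines a floxed TGF-β receptor gene, Tgfbr2, with Cre expressed from Lyz2 in myeloid cells, and since the WT donors had no Cre, effects of Cre and of the deletion cannot be told apart. There were 4 libraries of each genotype. Nothing in the labels ties each library to its own mouse, so p-values measure the spread between libraries, which may be technical.

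Oxidative phosphorylation makes ATP in the inner mitochondrial membrane. Complex I (NADH dehydrogenase) and complex II (succinate dehydrogenase) pass electrons to ubiquinone, complex III passes them on to cytochrome c, complex IV (cytochrome c oxidase) hands them to oxygen, and complex V (ATP synthase) uses the resulting proton gradient. Complexes I, III, IV and V are built from both nuclear and mitochondrially encoded subunits, complex II from nuclear ones only. In macrophages this machinery is used more in tissue-resident and alternatively activated states than after strong inflammatory activation.

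Of the 107 rows, 103 passed the filter on low counts in every fit. The other rows were the muscle isoform Cox8b, the testis isoforms Cox8c and Cox7b2, of which Cox7b2 had 0 counts in all libraries, and a second Atp5o locus that overlaps the first. Counts over all genes summed to between 15597310 and 37654133 per library, so that 3 counts were worth 0.0797 to 0.192 CPM, counts scaled to the total of the library. Levels below are CPM scaled by TMM, an adjustment for differences in RNA composition, and fold changes are log2 of KO over WT. Libraries WT 1, WT 2 and KO 1 stood apart: summed markers of epithelium were at 3301 to 5921 CPM there and at 170.7 to 265.1 CPM in the other 5 libraries, and those of endothelium at 2698 to 5306 CPM against 218.2 to 292.1 CPM. These 3 samples are called lung-rich. They were picked out from the data and are not groups of the study. Macrophage markers (12 genes, among them Csf1r, Adgre1 and C1qa) summed to 11650 to 20260 CPM in the lung-rich libraries and to 23250 to 29740 CPM in the others. In bulk RNA, fewer cells of a type and less RNA per cell cannot be told apart. Levels of Tgfbr2 itself were 547, 473, 545 and 541 CPM across WT 1 to 4 against 423, 575, 529 and 538 CPM across KO 1 to 4 (log2 fold change -0.03, edgeR adjusted p = 1.00), a total over the whole gene that a deleted exon need not lower. Lyz2, the gene that carries Cre, was at 7278 to 13180 CPM in WT and 3437 to 5605 CPM in KO. Being among the 12 macrophage markers, it brings this difference into their sum. Each comparison is therefore given over all 8 libraries, with the library set as a term, within the 5 other libraries, and as a value without a test within the 3 lung-rich ones.

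Over all 8 libraries, no oxidative phosphorylation gene passed the test. With genotype as the only term, 0 of 103 were called by edgeR's quasi-likelihood test (Benjamini-Hochberg adjusted p under 0.05), 2 had an unadjusted p under 0.05 (Ndufa4 and Ndufab1), and DESeq2 called 1, Ndufa4, as higher. Over all genes, 0.298% were called in this comparison. The median log2 fold change was -0.03 over the members and -0.01 over all genes tested.

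Ndufa4 was the member with the clearest rise. It encodes a small subunit of complex IV that was long counted with complex I, whose name it carries. The gene (ENSMUSG00000029632) lies on chromosome 6 at 11900292 to 11907497 of GRCm38, minus strand. Its levels were 34.3, 36.7, 28.3 and 27.3 CPM across WT 1 to 4 against 40.4, 39.4, 42.6 and 42.1 CPM across KO 1 to 4. All KO libraries lay above all WT libraries, and the distance was widest from WT 3 and WT 4. The log2 fold change was 0.38 (SE 0.11) over all libraries, which did not pass (edgeR adjusted p = 0.22). The set term gave 0.43 (SE 0.08, edgeR adjusted p = 0.0117), and within the 5 other libraries it was 0.58 (SE 0.06, edgeR adjusted p = 6.66e-07). Within the lung-rich libraries it was 0.18. The difference between the sets was itself called, at -0.39 (edgeR adjusted p = 0.0297). Of the 14 other settings tried for the fit with the set term, 6 gave an adjusted p above 0.05: the replicate block, the sum of WT 3 and WT 4, and leaving out WT 3, WT 4, KO 3 or KO 4.

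A paralog of Ndufa4 went the other way. AA467197, listed by RefSeq with the synonym Nmes1, is no member by name and was chosen after its values were seen. Its product is known to take the place of NDUFA4 in complex IV in inflamed cells. The gene (ENSMUSG00000033213, chromosome 2, 122636986 to 122641191, plus strand) also holds the microRNA gene Mir147, at 122640803 to 122640881. The mature microRNA is not measured in these libraries. Levels of AA467197 were 21.5, 26.4, 45.5 and 49.9 CPM across WT 1 to 4 against 8.03, 16.6, 14.8 and 17.0 CPM across KO 1 to 4. Every KO library was below every WT library. The log2 fold change of -1.35 (SE 0.35) over all libraries did not pass in edgeR (adjusted p = 0.19), while DESeq2 gave an adjusted p of 0.0109. The set term gave -1.57 (SE 0.09, edgeR adjusted p = 1.10e-04), with -1.57 within the 5 other libraries (edgeR adjusted p = 2.62e-12) and -1.58 within the lung-rich ones. All 14 other settings for the set term kept this call, with values between -1.64 and -1.53. Within each genotype the lung-rich libraries had less of it, so its level also moved with the set.

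**Figure D1:**
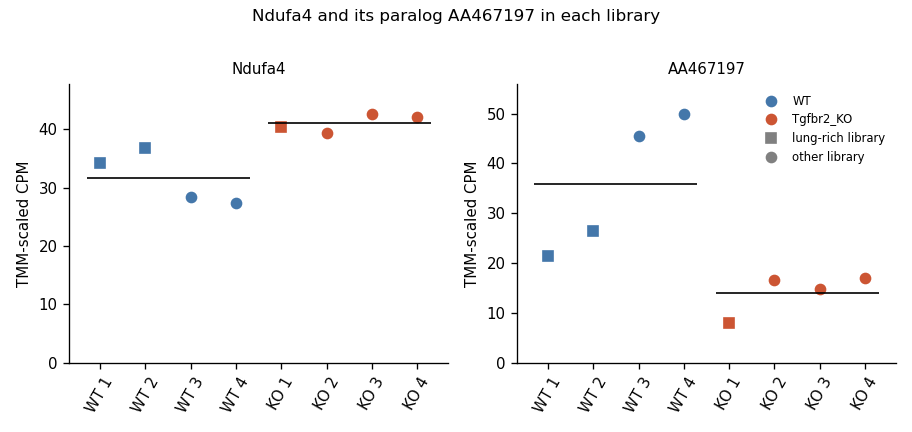
TMM-scaled CPM of Ndufa4 (left) and AA467197 (right) in each of the 8 libraries, with a horizontal line at the mean of each genotype; squares are the 3 lung-rich libraries and circles the other 5. KO libraries lie above all WT libraries for Ndufa4 (39.4 to 42.6 against 27.3 to 36.7 CPM) and below them for AA467197 (8.03 to 17.0 against 21.5 to 49.9 CPM).

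With the library set as a term, 15 members were lower in KO and 1, Ndufa4, was higher. The fallers made up 14.6% of the 103 tested, against 7.89% of all genes called lower and 8.59% called higher. Members leaned down as a group: 80 of 103 fold changes were below 0, with a median of -0.10 against 0.03 over all genes. All the changes were small, from -0.44 to -0.16 among the 15 fallers. Nuclear genes accounted for every call, with a median of -0.11 over 90 genes. Leaving out 1 library gave between 3 fallers (without WT 4) and 35 (without KO 1, where 3 rose). It was 7 without WT 3 and 9 without KO 4, and 8 with WT 3 and WT 4 summed into 1 library. With the replicate block, 0 members were called lower and 0 higher, but the numbers were not found to pair the libraries.

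Complex V, the ATP synthase, held 6 of the 15 fallers, and all of its 17 tested nuclear genes had fold changes below 0 (median -0.15). Atp5md, a small membrane subunit known for its part in ATP synthase dimers, fell most of all members. Atp5md levels were 25.6, 26.6, 38.4 and 39.8 CPM across WT 1 to 4 against 21.6, 26.2, 26.7 and 28.5 CPM across KO 1 to 4. The genotypes overlapped over all libraries, and within each set KO was below WT. The set term gave a difference of -0.44 (SE 0.07, edgeR adjusted p = 0.00464), with -0.53 within the 5 other libraries and -0.27 within the lung-rich ones. Atp5k, another subunit of the membrane part, was at 20.5, 19.8, 28.3 and 25.3 CPM in WT and 15.5, 20.9, 22.4 and 21.4 CPM in KO. Its fold change with the set term was -0.34 (SE 0.06, edgeR adjusted p = 0.0112). Atp5c1, the γ subunit of the rotating shaft, was at 95.6, 103, 145 and 146 CPM in WT and at 88.0, 119, 119 and 113 CPM in KO. It changed by -0.26 (SE 0.05, edgeR adjusted p = 0.0107). The stator subunit Atp5f1 (-0.22), the shaft subunit Atp5d (-0.16) and the ring subunit Atp5g2 (-0.19) were the other fallers. The calls of Atp5d and Atp5g2 were each lost in 7 of the 14 other settings, including without any of WT 3, WT 4, KO 2, KO 3 and KO 4. Those of Atp5c1 and Atp5f1 were lost without WT 4, and that of Atp5k without WT 3. The catalytic subunit Atp5b was at -0.16 and its partner Atp5a1 at -0.15, and both missed the threshold (edgeR adjusted p = 0.074 and 0.0502). Atpif1, which encodes the inhibitor of the enzyme and is no member by name, was at 0.02 (edgeR adjusted p = 0.86).

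Complex IV was the one complex with calls in both directions. Besides Ndufa4, 4 of its 17 tested nuclear genes passed, all lower, and the median was -0.11. Cox5a, a subunit on the matrix side of the enzyme, had 41.0, 45.7, 78.4 and 76.5 CPM across WT 1 to 4 against 37.8, 59.1, 58.3 and 58.2 CPM across KO 1 to 4. WT 3 and WT 4 stood above the rest, and KO 1 was lowest. Its fold change was -0.33 (SE 0.06, edgeR adjusted p = 0.00783). Cox4i1, the usual isoform of the regulatory subunit 4, was at 141, 145, 201 and 206 CPM in WT and 119, 178, 174 and 173 CPM in KO, a change of -0.23 (SE 0.04, edgeR adjusted p = 0.00798). Cox7a2l, known from work on supercomplexes of complexes III and IV, a function not measured here, changed by -0.21 and Cox8a by -0.20. Both of these calls were lost without WT 3, WT 4 or KO 4, and that of Cox4i1 without WT 4. Cox5b (-0.12), Cox6a1 (0.00) and Cox6b1 (-0.08) did not pass.

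Complex II had calls in 2 of its 4 genes. Sdhb, the iron-sulfur subunit, was at 55.1, 54.3, 74.7 and 76.6 CPM in WT and at 50.3, 63.1, 59.7 and 58.9 CPM in KO, with a fold change of -0.25 (SE 0.05, edgeR adjusted p = 0.017). Sdhd, a membrane anchor, was at 46.2, 51.9, 73.3 and 76.7 CPM in WT and at 46.0, 59.8, 60.3 and 58.3 CPM in KO, and also changed by -0.25 (SE 0.06, edgeR adjusted p = 0.0316). The Sdhb call was lost without WT 4. Leaving out any of 6 libraries ended the Sdhd call: WT 2, WT 3, WT 4, KO 2, KO 3 or KO 4. The other anchor, Sdhc, was at -0.11 and the flavoprotein Sdha at -0.06, neither past the threshold.

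Complexes I and III had few calls. The share called lower was 5.56% in complex I and 12.5% in complex III, against 7.89% of all genes. In complex I, 2 of 36 nuclear genes passed: the core subunit Ndufs3, at 24.6 to 29.6 CPM in WT and 21.9 to 25.8 CPM in KO (-0.22, SE 0.05, edgeR adjusted p = 0.0217), and the accessory subunit Ndufa10, at 41.1 to 59.2 CPM in WT and 38.5 to 51.7 CPM in KO (-0.19, SE 0.05, edgeR adjusted p = 0.0438). The Ndufa10 call was lost in 8 of the 14 other settings, including without any of WT 1, WT 3, WT 4, KO 2, KO 3 and KO 4, and that of Ndufs3 without WT 3 or WT 4. The core subunits Ndufs1 (-0.11) and Ndufv1 (-0.17) did not pass, and the median was -0.10. None of the 8 Ndufaf assembly factors was called by edgeR, and none had an unadjusted p under 0.05 in this fit. In complex III, Uqcrh, the hinge protein next to cytochrome c1, was the 1 of 8 that passed. Uqcrh was at 69.0, 66.9, 93.0 and 94.0 CPM in WT and at 60.2, 79.7, 80.1 and 80.8 CPM in KO (-0.21, SE 0.04, edgeR adjusted p = 0.0103), a call lost without WT 4. Uqcrc1 (-0.10), Uqcrc2 (-0.09) and the Rieske protein Uqcrfs1 (-0.19) did not pass.

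Within the 5 libraries that were not lung-rich, 39 members were lower and 5 higher in KO. That is 37.9% lower, against 18.7% of all genes, and 4.85% higher, against 19.7% of all genes. Nuclear genes made up 37 of the fallers, and 84 of 90 nuclear fold changes were below 0, with a median of -0.15 against -0.00 over all genes. Complex V had 12 of 17 genes lower, complex IV 8 of 17, complex I 12 of 36, complex II 2 of 4, complex III 2 of 8 and the assembly factors 1 of 8. Nuclear members lower here but not with the set term included Ndufv1 (-0.28), Ndufs1 (-0.14), Ndufa9 (-0.20), Ndufb5 (-0.20), Ndufaf4 (-0.48), Uqcrc2 (-0.18), Cox5b (-0.20), Cox7a2 (-0.22), Atp5a1 (-0.15) and Atp5b (-0.21). The same held for Atp5g3 (-0.39), Cox6c (-0.36) and Ndufab1 (-0.32). Atp5b, for example, was at 522 and 532 CPM in WT 3 and WT 4 and at 461, 456 and 451 CPM over KO 2 to 4. These libraries lay close together within a genotype, and WT is represented by 2 of them. Without WT 4, 21 members were lower, and without WT 3, 2 were higher.

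Other transcripts separated WT 3 and WT 4 from KO 2 to 4 as well, and their part in these results was not tested. The summed alveolar macrophage markers (8 genes) were at 486.4 and 498.9 CPM in WT 3 and WT 4 and at 121.1 to 145.5 CPM in KO 2 to 4. That gap came mainly from Chil3, a chitinase-like protein of alveolar and alternatively activated macrophages, at 348 and 347 CPM against 15.8 to 17.6 CPM. Of the 7 markers that were tested, 4 were lower in KO within the 5 libraries: Chil3, Plet1 (24.5 and 26.6 CPM in WT against 1.21 to 2.39 CPM in KO), Car4 (11.9 and 11.7 CPM against 5.08 to 6.21 CPM) and Siglecf (3.54 and 5.14 CPM against 1.43 to 2.29 CPM). Marco and Fabp4 were higher, Marco at no more than 1.22 CPM in any library, and Ear2 did not pass (96.0 and 104.7 CPM against 89.7 to 106.0 CPM). Car4 was at 64.1, 54.8 and 106.9 CPM in the lung-rich WT 1, WT 2 and KO 1. Krt79 was too low to test, at no more than 0.658 CPM, and no marker of the list was at 0 in every library. Neutrophil markers (6 genes) summed to 195.8 and 201.7 CPM in WT 3 and WT 4 and to 137.1 to 151.6 CPM in KO 2 to 4, with Ly6g at no more than 0.132 CPM in any library. They summed to 102.1 to 110.9 CPM in the lung-rich libraries. Most of each sum was Csf3r, at 134.4 and 142.0 CPM in WT 3 and WT 4 against 105.0 to 119.2 CPM in KO 2 to 4. The epithelial sums were 264.5 and 265.1 CPM against 170.7 to 226.7 CPM.

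**Figure D2:**
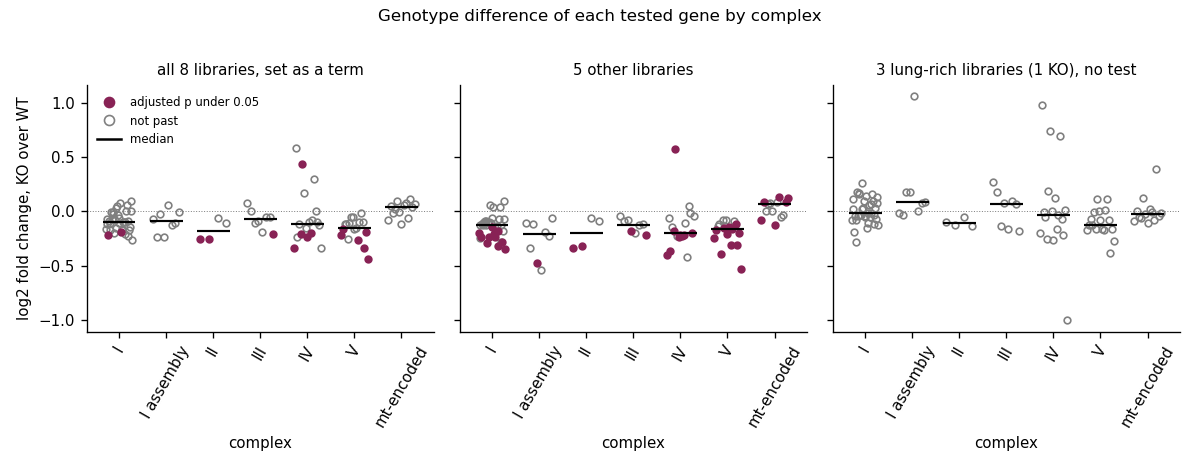
Log2 fold change of KO over WT for each of the 103 tested genes, grouped by complex, with the mitochondrially encoded genes on the right of each panel; filled points have an edgeR adjusted p under 0.05 and bars are medians. Points of nuclear genes lie mostly below 0 with the set as a term (median -0.11) and in the 5 other libraries (median -0.15), and closer to 0 in the 3 lung-rich libraries (median -0.03), where no test was made.

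In the lung-rich libraries, nuclear members had a median difference of -0.03 against 0.04 over all genes. The medians were -0.12 for complex V, -0.11 for complex II, -0.04 for complex IV, -0.01 for complex I, 0.07 for complex III and 0.08 for the assembly factors. With 1 KO library in this set, these are differences between libraries. The test of whether the genotype difference varied between the sets called 5 members, against 18.9% of all genes. Besides Ndufa4 these were Cox4i2 (1.05, described with the isoforms), Atp5g3 (0.39), Cox6c (0.36) and Ndufv1 (0.31), each given as the lung-rich difference minus that of the others. Atp5g3, a gene for the ring subunit, was at 101.1 and 103.4 CPM in WT 3 and WT 4, at 79.2, 75.9 and 78.8 CPM in KO 2 to 4, and at 66.4, 68.0 and 67.2 CPM in the lung-rich WT 1, WT 2 and KO 1. Cox6c was at 62.1 and 59.3 CPM in WT 3 and WT 4 and at 45.7 to 48.6 CPM in the other 6 libraries.

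None of the 13 mitochondrially encoded genes passed over all 8 libraries by edgeR, with or without the set term. Their median fold change was 0.12 over all libraries, 0.04 with the set as a term and 0.07 within the 5 other libraries, and 0 had an unadjusted p under 0.05 in either fit of all 8 libraries. The set-term median changed sign without WT 3 and with WT 3 and WT 4 summed, and ranged from -0.01 to 0.06 over the settings. DESeq2 called mt-Co3 (-0.13) and mt-Nd1 (-0.10) lower with the set term. Within the 5 other libraries 4 were higher in KO: mt-Nd4 (0.13), mt-Nd4l (0.12), mt-Cytb (0.08) and mt-Nd2 (0.08). The oxidase subunit mt-Co3 (-0.12) and the complex I subunit mt-Nd1 (-0.08) were lower. The difference therefore ran in both directions within complex I. Of the 13 genes, 30.8% were called higher and 15.4% lower here, against 19.7% and 18.7% of all genes. The complex I subunit mt-Nd4 was at 2807 and 2876 CPM in WT 3 and WT 4 and at 3166, 3107 and 3066 CPM over KO 2 to 4. The catalytic oxidase subunit mt-Co1 was at 11240 and 11210 CPM in WT 3 and WT 4 and at 11500, 11090 and 11130 CPM over KO 2 to 4 (log2 fold change 0.00, edgeR adjusted p = 0.91). Here the genotypes overlapped. The neighbouring reading frames of mt-Nd4 with mt-Nd4l and of mt-Atp8, mt-Atp6 and mt-Co3 share bases, and mt-Nd5 overlaps mt-Nd6 on the other strand. Reads there could be divided in more than 1 way, but the estimated counts of these genes were whole in every library. Libraries were made from polyadenylated RNA, so the level of a mitochondrial transcript also depends on its tail.

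Summed over genes, the nuclear members reached 4232, 4281, 5459 and 5537 CPM across WT 1 to 4 against 4079, 4934, 4808 and 4925 CPM across KO 1 to 4. Means were 4878 ± 717.8 CPM in WT and 4686 ± 408.9 CPM in KO (SD, n = 4), a ratio of 0.961 that lay within the spread. KO was at 0.889 of WT within the 5 other libraries and at 0.958 within the lung-rich ones. The mitochondrially encoded genes summed to 27080, 27070, 33760 and 34410 CPM in WT and to 26220, 35110, 34030 and 34080 CPM in KO, with ratios of 1.06, 1.01 and 0.968. The corresponding share of all counts, without TMM scaling, was 2.88% to 3.35%. By complex, the 5-library ratio of KO to WT sums was 0.873 for complex V, 0.89 for complex IV, 0.897 for complex II, 0.906 for complex III and 0.908 for complex I. For the complex I assembly factors it was 0.865, on sums of only 38.33 to 46.31 CPM in these libraries.

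**Figure D3:**
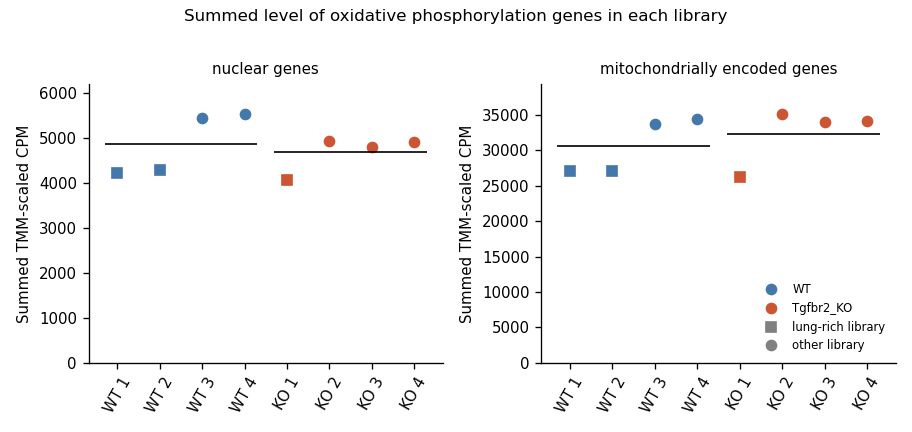
Sum of TMM-scaled CPM over the nuclear (left) and the mitochondrially encoded (right) genes in each library, with a line at the mean of each genotype; squares are lung-rich libraries. The nuclear sum is highest in WT 3 and WT 4 (5459 and 5537 CPM), and the mitochondrially encoded sum is lower in all 3 lung-rich libraries (26220 to 27080 CPM) than in the other 5 (33760 to 35110 CPM).

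Levels per length differed by genome. Averaged over WT 3 and WT 4, and per kilobase of merged exons, the mitochondrially encoded genes had a median of 2416 CPM per kilobase, from 11.4 for mt-Nd6 to 7265 for mt-Co1. The 90 tested nuclear members had a median of 24.4 CPM per kilobase, from 0.533 for Ndufa4l2 to 191 for Cox8a. Among these genes, the median was 48.6 CPM per kilobase for complex III, 41.2 for complex IV, 40.5 for complex II, 35.5 for complex V, 18.9 for complex I and 2.55 for the complex I assembly factors. Ndufa4 was at 20.1 CPM per kilobase. Merged exon lengths count every annotated exon and so understate genes with long, little-used exons.

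Most members were lower in the lung-rich libraries on the TMM scale. In all, 65 of 103 members were lower in each lung-rich library than in each other library, or 63.1%, against 23.1% of all genes. Only 3 members (2.91%, against 28.1% of all genes) were higher in each. The lower ones included all 13 mitochondrially encoded genes, 15 of 17 genes of complex V, 4 of 4 of complex II, 5 of 8 of complex III, 9 of 17 of complex IV, 17 of 36 of complex I and 2 of 8 assembly factors. This depended on scaling. With CPM on plain library totals, which raise the median of all genes in the lung-rich libraries by 0.20 (log2), 27 members were lower in each (26.2%, against 10.2% of all genes) and 10 were higher (9.71%, against 41.8%). On that scale the nuclear sums of the sets overlapped, at 4553 to 4592 CPM against 4582 to 5234 CPM, and the mitochondrially encoded sums did not, at 28810 to 29390 CPM against 32010 to 33460 CPM. Because the sets came from these data, the counts are descriptions.

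The members that were higher in the lung-rich libraries on the TMM scale were tissue-restricted isoforms. Cox4i2, the isoform of subunit 4 known from lung vessels and airways and from oxygen sensing, had 15.4 CPM in WT 1, 12.6 CPM in WT 2 and 27.4 CPM in KO 1, while the other 5 libraries had 0.769 to 0.899 CPM. Ndufa4l2, a paralog of Ndufa4 that is induced by hypoxia and is abundant in pericytes, was at 9.46, 6.80 and 13.1 CPM against 0.220 to 0.717 CPM. The muscle isoform Cox6a2 was at 1.89, 1.97 and 3.24 CPM against 1.21 to 1.63 CPM. In both of the first genes KO 1 was highest and the sets were far apart. Markers of pericytes and smooth muscle moved with them: all 10 were higher in each lung-rich library than in each other one, their sum was at 246.4 to 459.2 CPM against 36.16 to 57.94 CPM, and Pdgfrb was at 76.9, 67.3 and 134 CPM against 4.70 to 7.92 CPM. The same held for 12 of 12 endothelial, 10 of 10 fibroblast and 11 of 12 epithelial markers, whose sums were also highest in KO 1 (5306, 1285 and 5921 CPM), so the pericyte list was not alone in this. No marker of these lists was at 0 in all libraries, and their part in the isoform levels was not tested. None of the 3 isoforms was called between the genotypes. Log2 fold changes within the 5 other libraries, where levels were low, were -0.06 (Cox4i2), -0.42 (Ndufa4l2) and -0.22 (Cox6a2). With the set as a term they were 0.59, 0.30 and 0.17. Within the lung-rich libraries, with KO 1 as the only KO library, they were 0.98, 0.69 and 0.74. Other pairs were dominated by the common form: Cox6a1 was at 78.7 to 95.1 CPM, and Cox7a2 at 30.1 to 40.4 CPM with the muscle form Cox7a1 at 0.264 to 0.714 CPM. Cox6b2 was at 1.62 to 3.43 CPM beside Cox6b1 at 61.2 to 91.6 CPM.

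**Figure D4:**
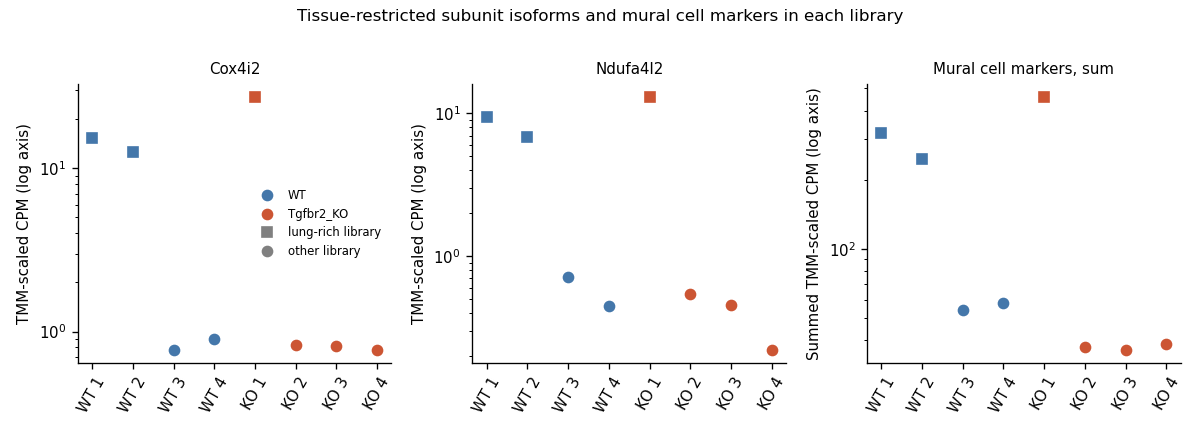
TMM-scaled CPM of Cox4i2 and Ndufa4l2 and the summed CPM of 10 pericyte and smooth muscle markers (mural cell markers) in each library, on log axes; squares are lung-rich libraries. In all panels the 3 lung-rich libraries lie above the other 5 and KO 1 is highest (27.4, 13.1 and 459.2 CPM), as it also is for the sums of endothelial, fibroblast and epithelial markers.

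Genes around the complexes were taken from lists of the pathway. For each count, the shares over all genes are 7.89% lower and 8.59% higher with the set as a term, and 18.7% lower and 19.7% higher within the 5 other libraries. Of the 12 carriers and further electron carriers, 3 were lower with the set as a term and 0 higher: Slc25a5, the ADP/ATP exchanger of many cells (-0.37, edgeR adjusted p = 0.00146), the outer membrane channel Vdac2 (-0.29, edgeR adjusted p = 0.0101) and the uncoupling protein homolog Ucp2 (-0.49, edgeR adjusted p = 0.0212). Slc25a5 was at 210, 213, 328 and 327 CPM in WT and at 170, 251, 243 and 250 CPM in KO. Within the 5 other libraries 7 of the 12 were lower, among them the cytochrome c gene Cycs (-0.36) and its complex III partner Cyc1 (-0.36). Of 36 further assembly factors, 1 was lower with the set term (Sco2, a copper chaperone of complex IV, -0.37) and 1 higher (Tmem126b of complex I assembly, 0.37). Within the 5 libraries 5 of these 36 were lower (Sco1, Sco2, Coa4, Coa5 and Sdhaf2) and 1, Cox14, was higher. Of 16 genes of pyruvate dehydrogenase and the tricarboxylic acid cycle, 2 were lower (Idh3a, -0.20, and Dld, -0.21) and 1 higher: Fh1, fumarase, the enzyme that follows complex II in the cycle (0.44, edgeR adjusted p = 0.0203). Within the 5 libraries, 10 of these 16 were lower and 2 higher. Of the 20 tested regulators, 1 was lower, Ppargc1b, a coactivator of mitochondrial genes, at 6.80, 7.41, 12.7 and 13.3 CPM in WT and 5.02, 10.7, 7.74 and 9.50 CPM in KO (-0.49, edgeR adjusted p = 0.0244). Nrf1 (0.04), Gabpa (-0.00), Yy1 (-0.03) and Tfam (-0.01), which drive nuclear or mitochondrial transcription of these complexes, did not pass. Within the 5 libraries 2 of the 20 regulators were lower, Ppargc1b (-0.48) and Twnk (-0.44), and 2 higher, Gabpb1 (0.31, edgeR adjusted p = 0.00128), which encodes a partner of GABPA in the factor GABP, and Pprc1 (0.16, edgeR adjusted p = 0.0252). Over all libraries with genotype alone, 0 genes of these 4 lists were called by edgeR.

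Promoters of the genes that moved are shown because many nuclear members are known targets of NRF1, ETS factors such as GABP, and YY1. Sequences are from RefSeq, on GRCm38.p6, from 120 bases before to 30 bases after the annotated start, 5′ to 3′ on the gene's strand. Shown are the riser Ndufa4, its paralog, and 4 fallers of complexes V, II and III whose windows held a match, with matches to the core letters searched in capitals.
Ndufa4 (chr6:11907421-11907570, minus strand): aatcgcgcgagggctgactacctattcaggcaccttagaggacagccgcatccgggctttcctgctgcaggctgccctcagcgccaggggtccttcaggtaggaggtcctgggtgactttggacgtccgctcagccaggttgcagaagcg
AA467197 (chr2:122637767-122637916, plus strand): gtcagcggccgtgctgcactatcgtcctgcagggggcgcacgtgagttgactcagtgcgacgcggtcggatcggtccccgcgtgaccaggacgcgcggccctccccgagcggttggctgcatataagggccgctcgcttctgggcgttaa
Atp5md (chr19:47090618-47090767, minus strand): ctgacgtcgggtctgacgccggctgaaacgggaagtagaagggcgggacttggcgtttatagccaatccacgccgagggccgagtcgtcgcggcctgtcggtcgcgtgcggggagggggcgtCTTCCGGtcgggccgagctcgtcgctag
Atp5k (chr5:108434370-108434519, minus strand): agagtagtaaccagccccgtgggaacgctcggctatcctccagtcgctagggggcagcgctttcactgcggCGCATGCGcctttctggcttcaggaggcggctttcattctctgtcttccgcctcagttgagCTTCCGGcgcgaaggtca
Sdhb (chr4:140961151-140961300, plus strand): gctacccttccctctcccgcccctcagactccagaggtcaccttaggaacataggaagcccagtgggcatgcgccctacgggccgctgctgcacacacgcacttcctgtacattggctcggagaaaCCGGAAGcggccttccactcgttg
Uqcrh (chr4:116075041-116075190, minus strand): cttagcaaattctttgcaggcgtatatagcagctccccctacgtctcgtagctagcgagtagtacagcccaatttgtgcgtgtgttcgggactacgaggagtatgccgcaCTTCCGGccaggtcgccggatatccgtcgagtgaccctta
Cores searched on both strands over the table's longer windows, from 250 bases before to 50 after the start, were CGCATGCG for NRF1, which reads the same on both strands, CCGGAAG for ETS factors and AAGATGGC for YY1. No core is contained in another. A promoter was found for 75 of 106 symbols. The NRF1 core was in 11 of these (14.7%, against 2.07% of 27025 promoters), the ETS core in 19 (25.3%, against 9.93%) and the YY1 core in 10 (13.3%, against 3.19%). Any of the cores was in 33 (44.0%, against 14.1%). Among 13 fallers with a promoter in the table, 7 held the ETS core, 2 the NRF1 core and 0 the YY1 core. In the printed windows, Atp5k has both an NRF1 and an ETS core, Atp5md, Sdhb and Uqcrh an ETS core near the start, and Ndufa4 and AA467197 none. Windows of the fallers Atp5c1, Atp5d, Cox5a, Cox7a2l and Ndufa10, not printed, held none either. A match is a description of letters and not a bound site.

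Several of the genes named above overlap another gene on the opposite strand within exons, among them Atp5md with Taf5, Atp5d with Cbarp, Atp5f1 with Wdr77, Cox4i1 with Emc8 and Ndufs3 with Kbtbd4. The low isoforms Cox6a2 and Ndufa4l2 overlap Itgad and Shmt2 in the same way. The kit marks strand, but the sources used here do not give the strand setting of the counting. No exon overlap with another gene of the table was found for Ndufa4 or AA467197. Of the 107 members, 97 had whole estimated counts in every library (within 0.0015), and the other 10, among them Atp5g3, Ndufs1 and Cox5b, had reads divided between genes in at least 1 library. Atp5md, Atp5d, Atp5f1, Cox4i1 and Ndufs3 were among the 97.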

How the data were processed

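There were 8 libraries of polyadenylated RNA from lung macrophages, 4 per genotype, grouped by the titles and genotype labels. The authors deposited estimated counts for each gene, made with salmon according to the name of the deposited table, and their totals differ between libraries. GRCm38 and DESeq2 1.40.1 come from the submitters' processing notes. The sources used here do not give the salmon version, the annotation, the strand setting or filters.

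Estimated counts were rounded and all genes were fitted in R 4.3.3 with edgeR 4.0.16 (robust quasi-likelihood F-test, filterByExpr with a minimum count of 10 and a total of 15, TMM, Benjamini-Hochberg adjustment over all genes tested, threshold 0.05). This left 12750 genes, or 12624 in the 5 libraries that were not lung-rich. Fits had genotype alone, genotype with the library set as an added term, genotype within the 5 libraries, and genotype by set. The set term assumes 1 genotype difference in both sets. The fits were tested on simulated data. Alternatives were median-ratio scaling, scaling without mitochondrially encoded rows, no filter, DESeq2 1.42.0, a replicate block, each library left out, and WT 3 and WT 4 summed. CPM are TMM-scaled. Totals of 15597310 to 37654133 counts set the precision.

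The members, lists, library sets, tests and alternatives were chosen with earlier results of these data known. Named members are the 4 with the smallest adjusted p per complex in the fit with the set term, complex II, the mitochondrially encoded genes, isoform pairs, core subunits and all called members; 1 gene that this rule names is not reported here. Gene positions and merged exon lengths are from GENCODE M21 on GRCm38, which held 22580 of the 22597 identifiers. Of the lists, 1 assembly factor and 1 regulator were not found under the name searched. Replicate numbers were not taken to pair libraries.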

Additional observations from a re-analysis of the deposited data

Results flagged for a closer look

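Among the 4 KO libraries, KO 1 stood apart from the other KO libraries in 18 of the named genes, by a gap to its nearest neighbour above Dixon's 95% critical value. In all, 108 groups of 4 libraries were examined, chance flags about 1 in 20, and all 18 flags fell on KO 1, the lung-rich KO library. The groups share libraries, so the flags are not independent of each other. WT 1 and WT 2 are both lung-rich, so a gap around a single library is less likely to be flagged in WT. KO 1 was the lowest in complex V for Atp5b (389.8 CPM), Atp5d (75.54 CPM) and Atp5f1 (90.7 CPM). It was the lowest in complex IV for Cox4i1 (119.3 CPM), Cox5a (37.75 CPM) and Cox7a2l (142.5 CPM), in complex II for Sdhd (45.98 CPM), and in complex III for Uqcrc1 (81.49 CPM) and Uqcrh (60.15 CPM). Mitochondrially encoded genes in which it was lowest were mt-Co1 (8219 CPM), mt-Co2 (2764 CPM), mt-Co3 (2408 CPM), mt-Nd1 (1578 CPM), mt-Nd4 (2421 CPM), mt-Nd4l (305.7 CPM) and mt-Nd5 (1150 CPM). It was the highest for Cox4i2 (27.42 CPM) and Ndufa4l2 (13.08 CPM).

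The genotype difference differed between the library sets in 5 members by the interaction test of edgeR. As the lung-rich difference minus that of the other libraries (log2), the values were 1.048 for Cox4i2 (adjusted p = 0.034), 0.3594 for Cox6c (adjusted p = 0.0192), 0.3897 for Atp5g3 (adjusted p = 0.00523), 0.3113 for Ndufv1 (adjusted p = 0.0469) and -0.3892 for Ndufa4 (adjusted p = 0.0297). The lung-rich set holds 1 KO library, which was assumed to vary like the others.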

How the results depend on the processing

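With genotype alone, 0 members were called higher or lower in each setting except DESeq2, which called 1 higher. With the library set as a term, the 15 lower calls became 23 with DESeq2, 8 with WT 3 and WT 4 summed and 0 with the replicate block, and ranged from 3 to 35 when each library was left out. The 1 higher call became 0 with the replicate block and 0 with WT 3 and WT 4 summed, and ranged from 0 to 3 when each library was left out. Within the 5 other libraries, the 5 higher calls became 3 when the contrast was taken from 4 genotype-by-set means and ranged from 2 to 7 over left-out libraries, and the 39 lower calls ranged from 21 to 43. The libraries share replicate numbers, but the numbers do not pair them: deviations correlated at 0.868 for number 1, -0.794 for number 2, 0.694 for number 3 and 0.753 for number 4, which follows the library sets. A called value changed sign in no alternative. Among single genes and medians, 1615 values kept their side of the threshold or moved by less than the spread, 64 lost the call, 22 gained it and 47 moved. The nuclear median with the set term was below 0 in every setting run, from -0.15 to -0.11. WT is represented by 2 libraries outside the lung-rich set and KO by 1 within it, which limits every value within a set. The cause of these changes was not tested.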
